A study of Amphiprion ocellaris with 30 samples.

Results

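The genes described here are those whose mean level moved in opposite directions under SR9243 and under T3, relative to DMSO, in larvae of the clownfish Amphiprion ocellaris. They were chosen from the measured values themselves. For each gene, the mean of the 10 SR9243 libraries minus the mean of the 10 DMSO libraries was taken as the SR9243 difference, and the T3 difference was formed in the same way. A gene was taken when these differences had opposite signs and each had a size of at least 0.3. It also had to lie above the lowest value of the table in all 30 libraries and outside the 200 genes with the highest mean, which left 20364 eligible genes of 22816. The rule took 109 genes, or 0.535% of the eligible ones. Of these, 55 had a positive SR9243 and a negative T3 difference (here the SR9243-up genes), and 54 had a negative SR9243 and a positive T3 difference (the T3-up genes). A further 14 genes met the sign and size conditions and were not eligible, 4 because they were among the 200 most abundant and 10 because at least 1 library stood at the lowest value.

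RNA was sequenced from entire wild-type larvae kept in sea water in beakers at 27°C and treated for 5 days, with 10 libraries per group. The larvae received SR9243 at 1e-07 M, T3 at 1e-07 M, or DMSO (dimethyl sulfoxide, the solvent) at 0.0001%. In the titles, T3 stands beside the tag IOP, whose meaning is not stated, and whether SR9243 and T3 larvae also received the solvent is not stated either. The labels do not say whether a library is 1 larva, or which larvae shared a beaker, so the spread between libraries may be partly technical and larvae of 1 beaker would not be independent.

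By the series title, SR9243 antagonises the liver X receptor, LXR. This protein is a nuclear receptor that is activated by oxysterols and switches on genes for cholesterol export and lipid synthesis. T3 (triiodothyronine) is the active thyroid hormone, and its receptors drive metamorphosis in fish and amphibians. LXR and the thyroid hormone receptors both pair with the same partner, the retinoid X receptor, and both can bind DNA at repeats of a shared short motif.

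All values are the authors' variance-stabilised normalised counts, a scale that is close to log2 at high levels and compressed at low ones, so a difference understates the change of a weakly expressed gene. The files name genes by Ensembl ID, and 0 of the 22816 IDs could be paired with a symbol here, so no role can be given for any of the 109 genes and no tissue marker could be looked up. For each gene the smaller of the sizes of its SR9243 and T3 differences was taken, and the 2 genes per direction in which this smaller size was largest are given by ID. Other genes are described by their values alone. In RNA from entire larvae, fewer cells of a type and less RNA per cell cannot be told apart. DMSO library 7 stood apart from its group over all detected genes, with a root-mean-square distance of 0.729 to the mean of the other DMSO libraries. DMSO library 4 was next at 0.419, and the remaining libraries of the 3 groups lay between 0.243 and 0.372. The counts of genes that met the rule, and the differences of the genes described singly by their extreme values, are therefore also given without libraries 4 and 7 or without the library that moved them most.

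Most of the opposite differences were small. Among the SR9243-up genes the median SR9243 difference was 0.46, ranging between 0.30 and 2.22, and the median T3 difference was -0.50, ranging between -2.42 and -0.31. Among the T3-up genes the median SR9243 difference was -0.48 (between -1.79 and -0.30) and the median T3 difference 0.59 (between 0.31 and 3.02). Both differences reached a size of 0.5 in 13 SR9243-up and 19 T3-up genes, and a size of 1 in 2 and 1 genes. The T3 difference was the larger one in size in 36 of the 55 SR9243-up genes and in 38 of the 54 T3-up genes. That is 67.9% of the 109 genes, close to the 67% of eligible genes. It exceeded the SR9243 difference more than 2 times in 12 genes of each direction, and the SR9243 difference exceeded the T3 difference more than 2 times in 4 SR9243-up and 3 T3-up genes. These are 22% and 6.42% of the 109 genes, against 39.8% and 15.8% of eligible genes, in which either difference may be near 0.

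**Figure D1:**
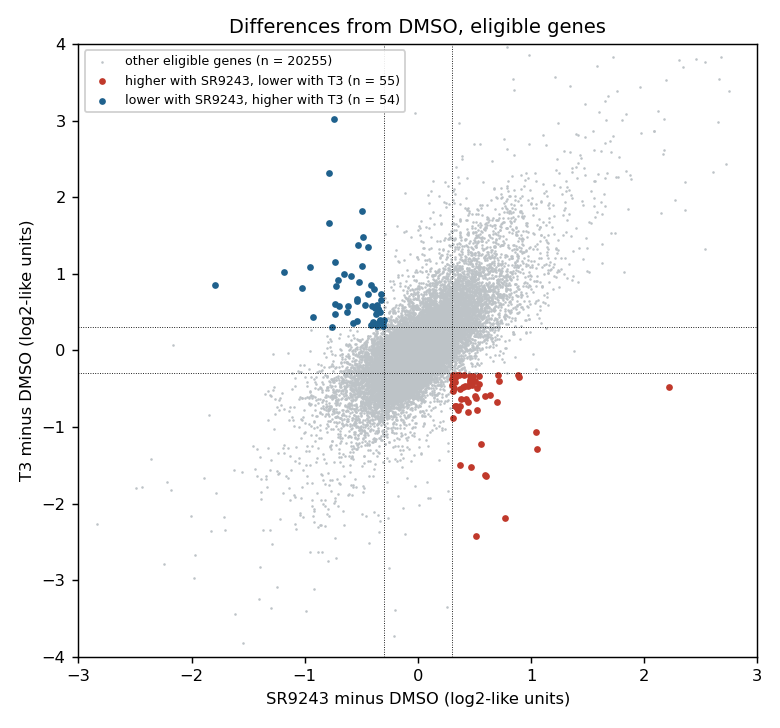
SR9243 difference from DMSO (horizontal) against T3 difference from DMSO (vertical) in log2-like units, 1 point per eligible gene, with the 55 SR9243-up genes in red and the 54 T3-up genes in blue. Dotted lines mark -0.3 and 0.3; the red points fill the lower right corner and the blue points the upper left corner by the rule, most of them close to the lines, and 28 genes lie outside the plotted range.

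The genes at the edge of the rule show how closely it divides. The SR9243-up genes nearest to the threshold had differences of 0.3004 and -0.451, and of 0.3012 and -0.3694, for SR9243 and T3. The nearest genes left out had 0.2989 and -0.5012, and 0.7851 and -0.298. On the T3-up side the nearest genes taken had -0.3016 and 0.3929, and -0.3057 and 0.319, while those left out had -0.2982 and 0.406, and -0.3043 and 0.2978.

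Because the rule used the differences from DMSO, the following calls describe the genes and support nothing. A gene was called at a Benjamini-Hochberg adjusted p below 0.05 in limma, fitted over all 22615 tested genes. The fit takes a common spread per gene over the groups, and each SE of a difference from DMSO given below comes from it. The DMSO SD was the highest of the groups in 68.8% of the 109 genes, against 60.8% of eligible genes. In such genes these SEs can be too small and calls against DMSO too frequent. SR9243 against DMSO called 29 of the 55 SR9243-up genes as higher, where 15% of all tested genes were called higher, and 21 of the 54 T3-up genes as lower, where 14.1% of all were (29.0% in either direction). T3 against DMSO called 38 of the SR9243-up genes as lower (25.8% of all tested genes) and 40 of the T3-up genes as higher (24.8% of all, and 50.5% in either direction). Called in opposite directions with both treatments were 27 SR9243-up and 18 T3-up genes, 45 of 109; among all tested genes the share was 0.327%. Another 33 genes were called with T3 alone (30.3%, against 29.8% of eligible genes), 5 with SR9243 alone (4.59%, against 7.82%) and 26 with neither (23.9%, against 39.7%).

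The direct comparison of SR9243 with T3 called 53 of the 55 SR9243-up genes as higher, where 17.1% of all tested genes were, and 53 of the 54 T3-up genes as lower, where 17.5% were (34.7% in either direction). Opposite differences from DMSO add up in this contrast, so these counts follow largely from the rule. They include 23 of the 26 genes that were called against DMSO with neither treatment (88.5%); of the eligible genes called with neither, 11.7% were called between SR9243 and T3. For these 23 genes the measured separation lay between the treated groups, with DMSO between them and called apart from neither. In simulated data a difference of 0.3 from DMSO was called in 28% of genes, so a missing call is no sign of no difference.

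The ranges of the libraries come from the same values. Counts of genes in which SR9243 and T3 libraries do not overlap therefore also follow largely from the rule. All 10 SR9243 libraries lay above all 10 T3 libraries in 28 SR9243-up genes (2.81% of all tested genes), and all lay below in 25 T3-up genes (3.26% of all). The DMSO libraries overlapped with the SR9243 libraries in every one of the 109 genes; among all tested genes, SR9243 lay fully above DMSO in 1.19% and fully below in 0.5%. T3 libraries lay fully below DMSO in 3 SR9243-up genes (4.96% of all tested genes) and fully above in 1 T3-up gene (7.08% of all). In 67 of the 109 genes the DMSO range reached beyond the mean of SR9243 on one side and the mean of T3 on the other. That share, 61.5%, is close to the 61.2% of all eligible genes in which the DMSO range held both treated means. The eligible genes include those with differences near 0, whose means a DMSO range holds more easily. In 4299 eligible genes both differences had a size of at least 0.3 and the same sign. Of these, the DMSO range held both treated means in 22.1%, with both means on 1 side of the DMSO mean.

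**Figure D2:**
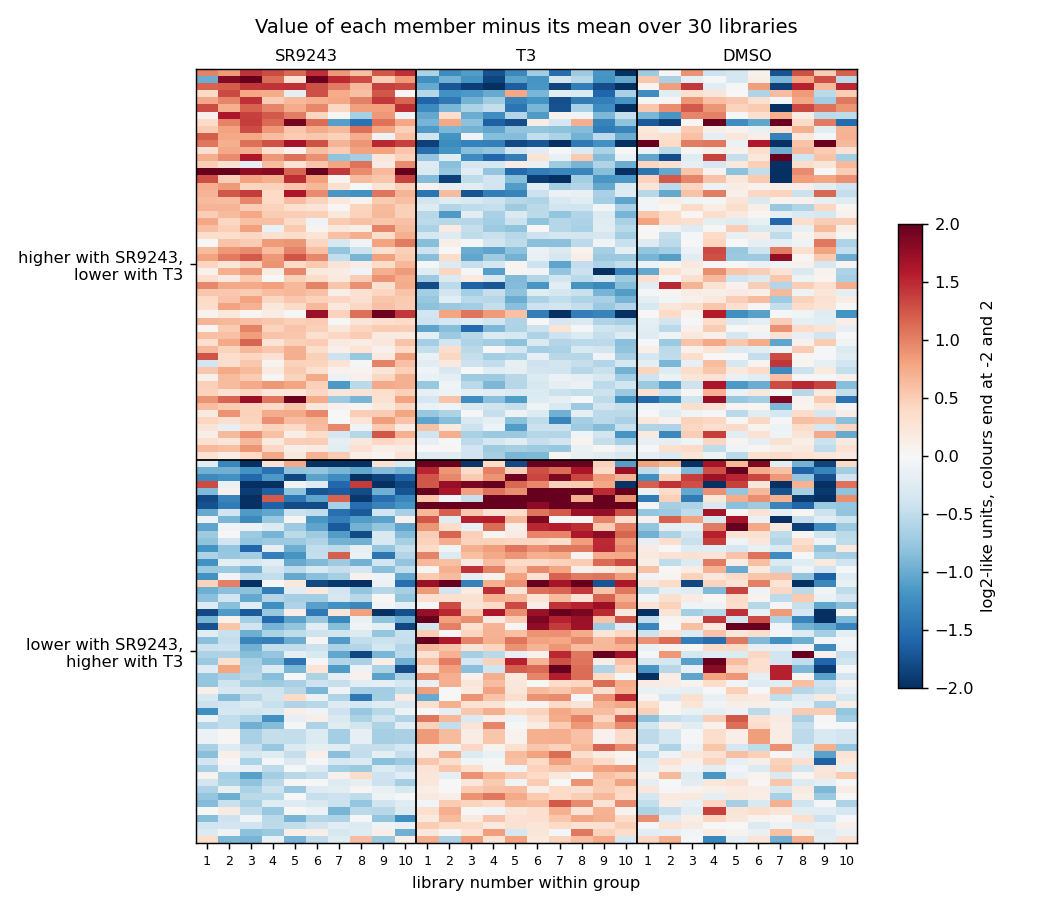
Value of each of the 109 genes (rows, sorted within direction by the smaller size of the SR9243 and T3 differences) in the 30 libraries (columns, grouped as SR9243, T3 and DMSO), minus the gene's mean over all libraries, in log2-like units. SR9243 and T3 columns carry opposite colours by the rule; the DMSO columns are mixed in colour, and the colours end at -2 and 2.

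ENSAOCG00000023276, an SR9243-up gene, had the largest smaller size of its differences of all 109 genes. Its values were 7.44, 8.04 and 8.31 (lowest, median and highest) in SR9243 libraries, 4.87, 5.64 and 6.22 in T3 libraries, and 5.12, 6.90 and 8.12 in DMSO libraries. No SR9243 library reached down to a T3 library, and the DMSO libraries spread over both ranges. The means were 7.98 ± 0.30 (SD, n = 10) with SR9243, 5.64 ± 0.45 with T3 and 6.92 ± 0.93 with DMSO. The SR9243 difference was 1.06 and the T3 difference -1.29 (SE 0.26 each). Without DMSO libraries 4 and 7 they were 0.77 and -1.57.

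ENSAOCG00000003807, the second SR9243-up gene, was more weakly expressed. Its values were 4.66, 6.86 and 7.77 in SR9243 libraries, 3.81, 4.52 and 5.28 in T3 libraries, and 4.74, 5.53 and 6.94 in DMSO libraries. SR9243 library 1, at 4.66, lay inside the T3 range, and the other SR9243 libraries, from 5.94 upwards, lay above it. The means were 6.70 ± 0.94 (SD, n = 10) with SR9243, 4.59 ± 0.40 with T3 and 5.66 ± 0.69 with DMSO. The differences from DMSO were 1.04 for SR9243 and -1.07 for T3 (SE 0.30 each), and the first was 1.27 without SR9243 library 1. Without DMSO libraries 4 and 7 they were 0.92 and -1.19.

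Among the T3-up genes, ENSAOCG00000021213 led the order and varied more than nearly any other gene. It ran between 4.28 and 8.08 in SR9243 libraries (median 6.53), between 5.38 and 10.96 in T3 libraries (median 8.66) and between 4.86 and 9.18 in DMSO libraries (median 7.84). The 3 groups overlapped broadly. The means were 6.19 ± 1.47 (SD, n = 10) with SR9243, 8.39 ± 2.15 with T3 and 7.38 ± 1.43 with DMSO, and the differences were -1.18 and 1.02 (SE 0.71 each). Its SD ranked 1 of the 20364 eligible genes among T3 libraries, 8 among SR9243 libraries and 49 among DMSO libraries. It was called against DMSO with neither treatment. Within the library sets described further on, its SR9243 difference was -1.75 in one and -0.61 in the other, and its T3 difference 0.42 and 1.61. Without DMSO libraries 4 and 7 the differences were -1.02 and 1.18.

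ENSAOCG00000001481, the second T3-up gene, was tight in SR9243 larvae and wide in DMSO larvae. Its values were 4.71, 5.24 and 5.40 in SR9243 libraries, 6.58, 7.26 and 7.90 in T3 libraries, and 4.58, 5.89 and 8.29 in DMSO libraries. SR9243 and T3 libraries did not overlap, and the DMSO range held all libraries of both. The means were 5.2 ± 0.21 (SD, n = 10) with SR9243, 7.24 ± 0.51 with T3 and 6.15 ± 1.2 with DMSO. The differences were -0.95 and 1.08 (SE 0.32 each), and -0.71 and 1.33 without DMSO libraries 4 and 7. These SEs rest on a spread shared by all groups, while the DMSO SD was 1.2, so they may be too small.

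**Figure D3:**
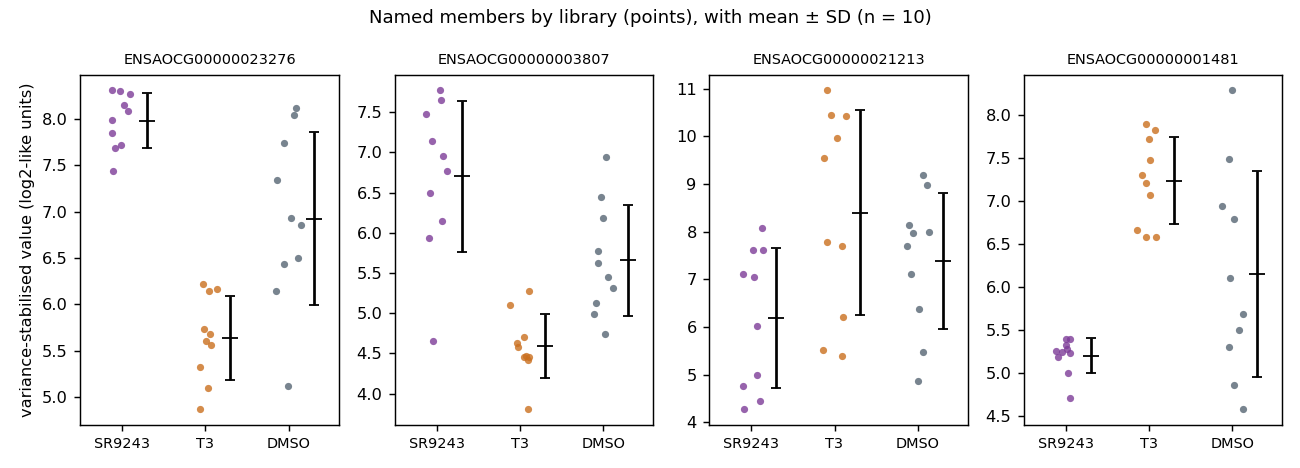
Variance-stabilised values of the 4 genes given by ID in each library (points, 10 per group), with the mean and SD of each group to the right of its points; each panel has its own vertical range that does not start at 0. SR9243 and T3 points separate fully for ENSAOCG00000023276 and ENSAOCG00000001481, all but 1 SR9243 point separates for ENSAOCG00000003807, and the groups overlap for ENSAOCG00000021213.

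Some genes had 1 large and 1 modest difference. The largest SR9243 difference, 2.22 (SE 0.40), belonged to an SR9243-up gene with means of 9.67 ± 0.57 (SD, n = 10) in SR9243, 6.97 ± 0.59 in T3 and 7.45 ± 1.44 in DMSO libraries. Its SR9243 libraries lay between 8.68 and 10.33, its T3 libraries between 5.91 and 7.82, and its DMSO libraries between 3.96 and 8.97. DMSO library 7 was the lowest, and without it the SR9243 difference was 1.83 and the T3 difference -0.87. The T3 difference was -0.48 (SE 0.40) with all libraries and -0.31 without DMSO library 8, and T3 against DMSO did not call this gene. Within the library sets described further on, its T3 difference was -0.15 in the first and -0.82 in the second. In the first set alone the gene thus did not meet the rule.

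The largest T3 decrease, -2.42 (SE 0.39), was in an SR9243-up gene with means of 10.5 ± 0.33 (SD, n = 10) in SR9243, 7.53 ± 0.73 in T3 and 9.96 ± 1.41 in DMSO libraries. DMSO library 7 stood at 6.46 and the other DMSO libraries between 9.20 and 11.4. Without library 7 the SR9243 difference of this gene was 0.13, against 0.52 with it, so it met the rule only with that library.

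On the T3-up side, the largest SR9243 decrease was -1.79 (SE 0.33). This gene had means of 5.04 ± 0.33 (SD, n = 10) in SR9243, 7.69 ± 0.47 in T3 and 6.83 ± 1.26 in DMSO libraries. The SR9243 range, between 4.54 and 5.45, ended well below the T3 range, between 7.05 and 8.46, and DMSO libraries ran from 4.77 to 8.21 across both. Its differences were -1.55 and 1.1 without DMSO libraries 4 and 7, against -1.79 and 0.85 with them.

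The largest T3 increase, 3.02 (SE 0.17), was in the only T3-up gene whose T3 libraries all lay above all DMSO libraries. T3 libraries lay between 8.54 and 9.65, SR9243 libraries between 4.77 and 6.09 and DMSO libraries between 5.14 and 6.72. The means were 5.25 ± 0.38 (SD, n = 10) in SR9243, 9.01 ± 0.33 in T3 and 5.99 ± 0.45 in DMSO libraries. Its SR9243 difference, -0.74, stayed between -0.83 and -0.66 with any single library left out.

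The 3 SR9243-up genes in which T3 lay fully below DMSO had T3 differences of -1.64, -1.22 and -0.72 and SR9243 differences of 0.60, 0.56 and 0.37. In the first, T3 libraries lay between 5.85 and 6.90 and DMSO libraries between 6.92 and 8.67. In the second, T3 libraries lay between 8.0 and 8.61 and DMSO libraries between 9.19 and 10.1. In the third, T3 libraries lay between 7.80 and 8.68 and DMSO libraries between 8.74 and 9.58. All 3 met the rule with every single library left out.

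The 109 genes ran from low to high levels of expression, and SR9243-up genes lay at high levels more often than T3-up genes. The median of the mean level was 7.94 in SR9243-up genes and 6.76 in T3-up genes, against 7.06 in all eligible genes. By terciles of mean level over the eligible genes, 14, 11 and 30 SR9243-up genes lay in the lowest, middle and highest tercile, and 18, 22 and 14 T3-up genes. Members ran from 4.34 to 12.2. A pair of T3-up genes had identical values in all 30 libraries, with an SR9243 difference of -0.35 and a T3 difference of 0.54, and counted once they leave 108 measurements. Over all genes, 172 rows, these included, had an identical partner, and reads of such copies may have been split between them.

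Libraries of the same group differed more in these genes than in the eligible genes at large. The median SD over SR9243 libraries was 0.311 in SR9243-up and 0.38 in T3-up genes, against 0.219 in all eligible genes. Over T3 libraries it was 0.341 and 0.439, against 0.206. Over DMSO libraries it was 0.529 and 0.577, against 0.276. An SD of at least 1 among DMSO libraries was found in 25 of the 109 genes (22.9%) and in 1.23% of eligible genes. Among SR9243 and among T3 libraries, 5 genes each reached it (4.59%), against 0.196% and 0.216% of eligible genes. No test was made of these differences in spread, and a gene with a wide spread more easily passes a rule on the size of a mean difference. The median SDs of the 13 SR9243-up genes that met the rule under all the library choices given further on were 0.265 in SR9243, 0.319 in T3 and 0.398 in DMSO libraries, each below that of the 55. Those of the 22 T3-up genes that did so were 0.442, 0.461 and 0.655, each above that of the 54.

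**Figure D4:**
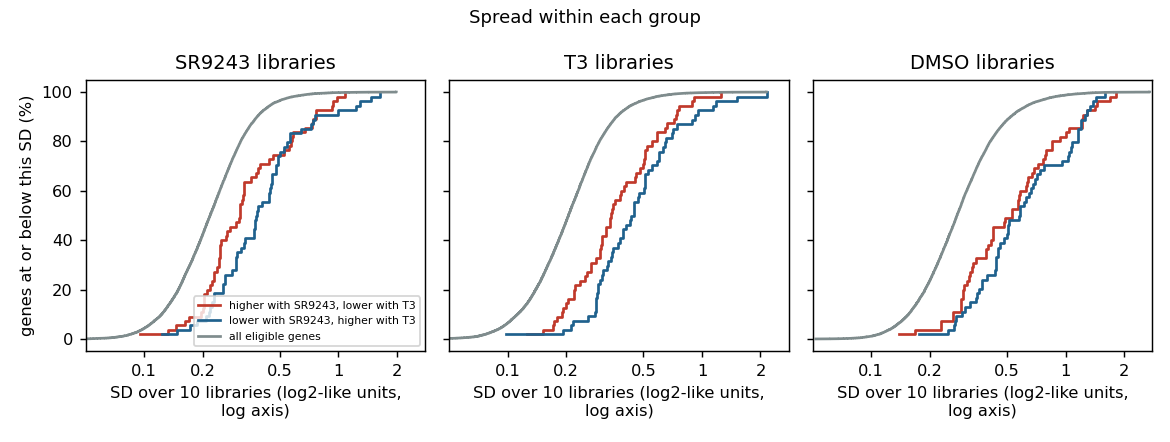
Percentage of genes (vertical) with an SD over 10 libraries at or below the value on the horizontal axis (log2-like units, logarithmic axis), for SR9243, T3 and DMSO libraries in separate panels. In each panel the curves of the 55 SR9243-up (red) and 54 T3-up genes (blue) run to the right of that of all 20364 eligible genes (grey), with median SDs in DMSO libraries of 0.529, 0.577 and 0.276.

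The DMSO library farthest from its group was most often library 7, 9 or 4. DMSO library 7 was the one farthest from the DMSO mean in 39 of the 109 genes (35.8%), which is below its share of 41.7% over all eligible genes. DMSO library 9 was farthest in 20 genes (18.3%, against 7.97% of eligible genes) and DMSO library 4 in 15 (13.8%, against 10.5%). Among the SR9243 libraries, library 8 was farthest in 24 genes (22%, against 18.5% of eligible genes) and library 7 in 19 (17.4%, against 14.1%). Among the T3 libraries, library 2 was farthest in 25 (22.9%, against 20.9%).

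Libraries were also summarised over the genes, from the same values that the rule used. The order of the groups given here therefore follows largely from the rule. The median over the SR9243-up genes of a library's value minus the DMSO mean was 0.130 in SR9243 library 7, 0.210 in library 8 and between 0.431 and 0.686 in the other SR9243 libraries. It lay between -0.812 and -0.276 in T3 libraries and between -0.234 and 0.296 in DMSO libraries, so SR9243 libraries 7 and 8 fell inside the DMSO range. The median over the T3-up genes lay between -0.658 and -0.375 in SR9243 libraries, between 0.320 and 0.895 in T3 libraries and between -0.447 and 0.306 in DMSO libraries. DMSO library 9 was the lowest of its group at -0.447, within the SR9243 range.

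How the genes varied together within a group is a further description. It is not separate from the selection, since single libraries, DMSO libraries 7 and 4 above all, decided through the group mean whether many genes met the rule. The correlation of such deviations between pairs of genes had a median of 0.279 over 10 SR9243 libraries among SR9243-up genes, 0.129 over T3 and 0.113 over DMSO libraries. Among pairs of T3-up genes the medians were 0.078 over SR9243, 0.1 over T3 and 0.206 over DMSO libraries. Between a gene of one direction and a gene of the other they were -0.038, -0.021 and 0.007. For pairs of every 5th eligible gene the median was within 0.001 of 0 in each group. All genes of a library share its depth and scaling, the eligible ones included, and the source of these correlations was not tested.

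Some genes were linked closely. Over the 30 deviations, a correlation of at least 0.8 was found in 17 of 1485 pairs of SR9243-up genes (1.14%), in 4 of 1431 pairs of T3-up genes (0.28%, the identical pair included) and in 0 of 2970 pairs across the directions, against 0.191% of eligible pairs. Sets of 3 or more genes joined in this way were found among SR9243-up genes, a set of 6 with a median correlation of 0.90 and a set of 3. In the set of 6, the median over the genes was 6.41 in SR9243 library 7 and 6.52 in SR9243 library 8, and between 7.96 and 8.50 in the other SR9243 libraries. It was 9.06 in DMSO library 4 and 9.11 in DMSO library 7, and between 6.03 and 8.45 in the other DMSO libraries. T3 libraries lay between 6.26 and 7.56. The median SR9243 difference of these 6 genes was 0.57 and the median T3 difference -0.48. Without DMSO libraries 4 and 7 the medians were 1.07 and -0.03, so that the T3 difference rested on those libraries and the SR9243 difference was larger without them.

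The set of 3 included the gene with the largest SR9243 difference. DMSO library 7 was the lowest DMSO library in all 3 genes, at 3.73, 7.63 and 3.96, while the other DMSO libraries lay between 8.56 and 9.44, between 10.86 and 11.86, and between 6.58 and 8.97. Without DMSO libraries 4 and 7, the SR9243 differences of the first and second of these genes were 0.07 each, against 0.60 and 0.47 with all libraries. Their T3 differences were -2.15 and -1.91 without these libraries, against -1.63 and -1.52.

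**Figure D5:**
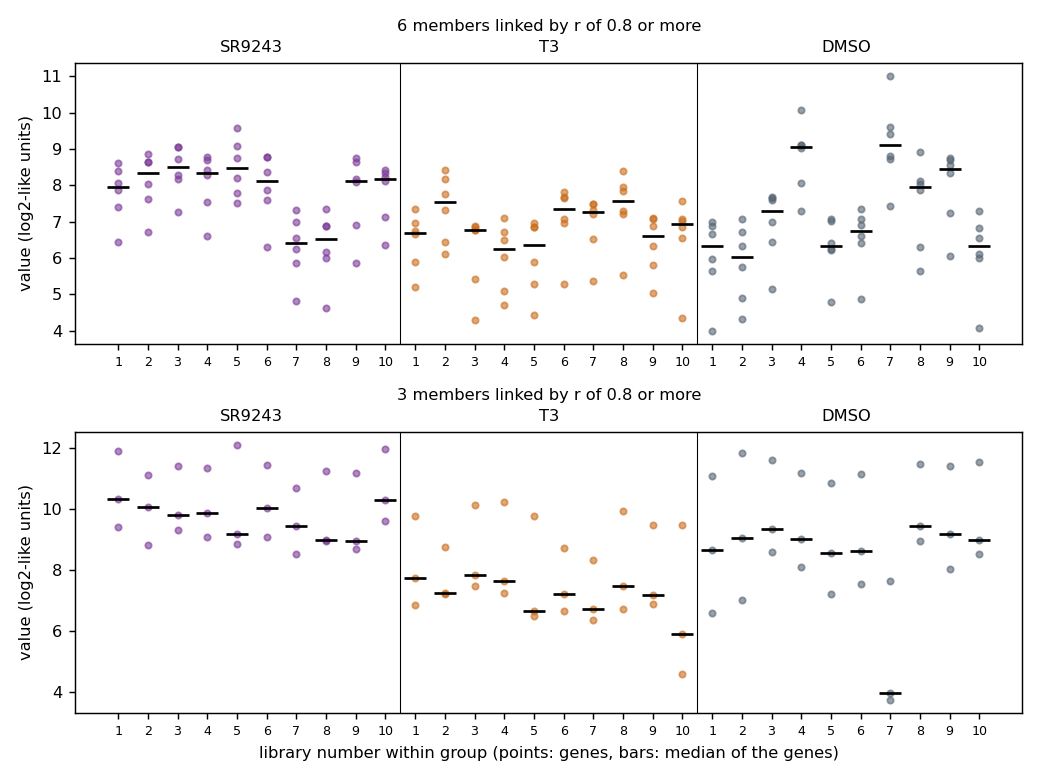
Values of the 6 (upper panel) and 3 (lower panel) SR9243-up genes linked by correlations of at least 0.8, in log2-like units, by library number within the SR9243, T3 and DMSO groups; points are genes and bars the median of the genes in that library. In the upper panel DMSO libraries 4 and 7 reach medians of 9.06 and 9.11 and SR9243 libraries 7 and 8 drop to 6.41 and 6.52; in the lower panel DMSO library 7 is the lowest of its group.

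Which genes met the rule depended on the libraries. Without DMSO libraries 4 and 7 the differences kept opposite signs in 105 of the 109 genes, and both kept a size of 0.3 in 31 of the 55 SR9243-up and 37 of the 54 T3-up genes. Of the 41 genes that then failed, the SR9243 difference was too small in 24 and the T3 difference in 17. Leaving out DMSO library 7 alone removed 23 SR9243-up and 9 T3-up genes, and leaving out DMSO library 4 alone removed 12 of each. With each of the 30 libraries left out in turn, 20 SR9243-up and 27 T3-up genes met the rule every time. Such repeats share nearly all their libraries with the full comparison, which fixes the direction.

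SR9243 and T3 libraries had earlier been seen to fall into sets by library number, which no label names as a batch. SR9243 libraries 6 to 10 and T3 libraries 1 to 5 form the first set, and SR9243 libraries 1 to 5 and T3 libraries 6 to 10 the second. Each set holds 5 libraries of each treatment, so the difference between the sets is balanced over the treatments and was not used by the rule. The sets were found in these same data, so calls and p-values between them are descriptions and no test of the sets. The difference between the sets was called (limma, adjusted p below 0.05) in 8 of the 109 genes (7.34%), against 8.61% of all tested genes, a share near the background. One of the 8 was higher in the first set and 7 were lower, where 5.79% and 2.82% of all tested genes were.

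The gene that was higher in the first set had the largest difference between sets, 1.73 (SE 0.20, limma adjusted p = 1.14e-06), and it is an SR9243-up gene. Its mean was 11.9 ± 0.58 (SD, n = 5) in SR9243 libraries 6 to 10 and 11.1 ± 0.57 in T3 libraries 1 to 5 of the first set. In the second set it was 10.6 ± 0.09 in SR9243 libraries 1 to 5 and 8.91 ± 0.36 in T3 libraries 6 to 10, and DMSO libraries were at 10.4 ± 0.85 (SD, n = 10). T3 libraries of the first set thus had a higher mean than DMSO and those of the second set a lower one, and the T3 difference was -0.34 in all. That difference also rested on DMSO library 4, which stood at 12.13 with the other DMSO libraries between 9.32 and 10.95. Without DMSO library 4 its size falls below 0.3. The 7 other genes had set differences between -1.0 and -0.44, with limma adjusted p between 0.00287 and 0.0465.

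Taken within a set, with all 10 DMSO libraries, the differences had opposite signs in 104 of the 109 genes for the first set and in 108 for the second. Both kept a size of 0.3 in 57 genes for the first set (26 SR9243-up and 31 T3-up), in 90 for the second (46 and 44) and in 50 genes for both. The median SR9243 difference of SR9243-up genes was 0.35 with the first set and 0.53 with the second, and their median T3 difference -0.53 and -0.54. For T3-up genes the medians were -0.44 and -0.51 for SR9243, and 0.48 and 0.74 for T3. The genes were chosen on these same libraries, so the values within sets are no second measurement.

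Asking for all of this together (each library left out in turn, DMSO libraries 4 and 7 left out, and each set alone) kept 13 SR9243-up and 22 T3-up genes. The 13 had SR9243 differences between 0.42 and 1.06 (median 0.54) and T3 differences between -2.18 and -0.41 (median -0.67). The 22 had SR9243 differences between -1.79 and -0.39 (median -0.67) and T3 differences between 0.37 and 3.02 (median 0.87). All 4 genes given by ID are among them. SR9243 and T3 libraries did not overlap in 8 of the 13 and 15 of the 22. Among all tested genes, SR9243 lay fully above T3 in 2.81% and fully below in 3.26%. All of the 13 and 12 of the 22 were called against DMSO with both treatments. Of all tested genes, 0.327% were called with both in opposite directions. The 13 and 22 were kept for the size of these same differences. These counts therefore follow largely from that choice and support nothing.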

How the data were processed

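RNA from entire larvae was sequenced in 30 libraries, 10 each for SR9243, T3 and DMSO, grouped by sample title. Per the labels' protocols, poly(A)-selected stranded libraries were read in pairs of 150 bases. The submitters' processing notes list kallisto 0.46.1 and FastQC 0.11.8. The sources used here do not give the build, the annotation or the variance-stabilising tool. The deposited table holds normalised counts that the authors variance-stabilised onto a log2-like scale, between 2.88 and 18.7. Total counts are not in it, so depth is unknown and no interval based on depth was computed; 0 columns lacked a sample. The reference table of 28286 genes held 0 Ensembl IDs, so the 27 gene lists could not be applied.

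Genes were selected on group means in Python 3.11.15. The members and lists were chosen with earlier results of these data known. The 22615 genes with 10 or more libraries above the lowest value were tested in R 4.3.3 by limma 3.58.1 (trended eBayes, treatment as the only factor over the 3 groups, two-sided, Benjamini-Hochberg). The difference between library sets was fitted over SR9243 and T3 libraries with treatment as covariate. Both fits were tested on simulated data with normal noise and 1 SD per gene for all groups. In them 22415 of the 22615 genes were left unchanged, far more than in the measured data by the calls. The shares recovered therefore need not hold for the measured genes. With opposite differences of 0.3 from DMSO put into 50 genes, 28% were recovered with each treatment against DMSO and 78% between SR9243 and T3. With differences of 0.5 these shares were 52% for SR9243, 56% for T3 and 98% between SR9243 and T3. By rule, the 2 genes per direction with the largest smaller size of both differences are named by ID; the genes with the largest single differences were added after their values were seen. Same-numbered libraries correlated above 0.1 in their deviations in 7 of 30 pairs. Libraries of different numbers were not compared, so this cannot show whether numbers pair libraries. Numbers were not taken to pair them. Alternatives were other scalings, filters, group medians, a variance model without trend, a replicate block, library sets and leaving libraries out. Where the library set was a term in the fit, DMSO libraries 1 to 4 were placed in the first set. The other DMSO libraries were placed in the second, and no label names this split.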

Additional observations from a re-analysis of the deposited data

Results flagged for a closer look

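Libraries far from the rest of their group were looked for in the 4 genes given by ID and the 4 genes with the largest single differences, where the gap to the next library, as a share of the range of the 10, exceeded Dixon's critical value. Chance flags about 1 in 20 groups. In the SR9243-up gene with the largest SR9243 difference, DMSO library 7 stood at 3.96 and the next at 6.58. In the SR9243-up gene with the largest T3 decrease, T3 library 7 stood at 5.65 with the next at 7.12, and DMSO library 7 stood at 6.46 with the next at 9.20. Over the 109 genes such a library was found in 6 genes among SR9243 libraries (5.5%, against 4.76% of eligible genes), in 5 among T3 libraries (4.59%, against 6.87%) and in 25 among DMSO libraries (22.9%, against 15%). It was DMSO library 7 in 13 of the 25 genes. The matching share over eligible genes is not given here, but DMSO library 7 was the farthest of its group in 41.7% of them. Leaving out DMSO library 7 removed 23 SR9243-up and 9 T3-up genes, so these counts are not separate from the rule. What sets this library apart was not tested.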

How the results depend on the processing

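The 55 SR9243-up and 54 T3-up genes became 125 and 151 in the second set alone, of which 46 and 44 were shared with the full selection; the cause was not tested. In the first set alone they were 53 and 48, of which 26 and 31 were shared. With each library left out the counts ran from 49 to 72 and from 50 to 64. Equal library medians gave 59 and 55 (45 and 48 shared), quantile normalisation 60 and 56 (49 and 51 shared), and group medians 74 and 75 (32 and 40 shared). A looser filter gave 57 and 61, and the 200 most abundant genes kept gave 59 and 54. DMSO libraries 4 and 7 left out gave 61 and 61, of which only 31 and 37 were shared. Similar counts can thus stand for different genes. Equal medians moved the median SR9243 difference by -0.03 and the T3 difference by -0.06. The differences of the 4 genes given by ID changed sign under none of the scalings, group medians or library choices, which were applied to them after seeing the data. These 4 genes were picked for the size of these same differences. A kept sign therefore follows largely from that choice and supports nothing.

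Calls over all genes stayed within 1.5 times under every alternative run. With a replicate block by library number SR9243 against DMSO gave 6197 calls, T3 against DMSO 11131, and SR9243 against T3 7453; without it they were 6568, 11430 and 7841. With each library left out they ran from 5852 to 7240, from 11046 to 11635 and from 6908 to 8868, and calls between the library sets (1948) from 1610 to 2352. The split of SR9243 against DMSO turned from 3385 higher and 3183 lower to 2997 and 3779 with equal medians and 3198 and 3552 with quantile normalisation. For T3 against DMSO it was 5601 and 5829, and 4835 and 7007 with equal medians; for SR9243 against T3 it was 3877 and 3964, and 4418 and 3500. Unknown depth limits the reading of low values.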
